A study of Mus musculus with 9 samples.

Results

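Umod, Egf, Slc12a1, Kcnj1, Bsnd and Ptger3 are 6 of the 32427 genes counted in the single-cell libraries of 9 mouse kidneys, and they were taken by name from the count matrix of each mouse. Their levels are given by mouse, by group and by cell type. The cell types were rebuilt from marker genes that include none of the 6, and the 6 genes were also kept out of the genes used for clustering. All 9 mice were male C57BL/6 mice, 6 weeks old at the start, with no transgene, and their kidneys were taken after 8 weeks. Control mice (n = 3) received saline. AKI-CKD mice (n = 3) received cisplatin at 8 mg/kg in 4 weekly injections, a model of acute kidney injury (AKI) that passes into chronic kidney disease (CKD). AKI-CKD + EGT mice (n = 3) received the same cisplatin and also ergothioneine (EGT), a thiol antioxidant, at 0.5 mg/mL in the drinking water (about 100 mg/kg/day), begun 3 days before cisplatin. Each library came from a piece of the kidney of 1 mouse, so a group is 3 animals of 1 sex and strain.

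The thick ascending limb (TAL) of the loop of Henle reabsorbs salt without water and so dilutes the urine and builds the salt gradient of the medulla. Slc12a1 encodes NKCC2, the apical sodium-potassium-chloride cotransporter that loop diuretics block. Kcnj1 encodes ROMK, the apical potassium channel that returns potassium to the lumen for NKCC2. Bsnd encodes barttin, the subunit that the basolateral chloride channels need to reach the membrane. Ptger3 encodes the EP3 receptor for prostaglandin E2, which lowers cyclic AMP and restrains transport in this segment. Umod encodes uromodulin, a protein that TAL cells secrete into urine. Egf encodes the precursor of epidermal growth factor, made in the TAL and the distal convoluted tubule. Loss of SLC12A1, KCNJ1 or BSND function in people causes forms of Bartter syndrome, and mutations in UMOD cause a dominant tubulointerstitial kidney disease.

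The sequences just before the transcription starts of the 3 genes with the highest share of their UMIs in TAL cells are shown to let their promoters be compared. They are the bases from -250 to -1, 5′ to 3′ on the strand of the gene, taken from RefSeq on GRCm38.p6, which is another build than the GRCm39 named in the submitters' processing notes. A window was found for 5 of the 6 genes, with 2 for Egf, of which the one before the more upstream start is shown and the other held no motif searched either. Capitals mark the HNF1 half-site, the only match among the motifs searched. The Umod window is chr7:119479263-119479512 (minus strand), the Egf window is chr3:129755323-129755572 (minus strand) and the Slc12a1 window is chr2:125152350-125152599 (plus strand).
Umod: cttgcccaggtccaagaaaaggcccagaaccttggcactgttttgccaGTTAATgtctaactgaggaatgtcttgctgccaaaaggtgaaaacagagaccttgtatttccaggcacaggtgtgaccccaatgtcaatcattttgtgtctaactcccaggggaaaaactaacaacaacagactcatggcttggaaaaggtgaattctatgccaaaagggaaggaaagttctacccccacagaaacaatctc
Egf: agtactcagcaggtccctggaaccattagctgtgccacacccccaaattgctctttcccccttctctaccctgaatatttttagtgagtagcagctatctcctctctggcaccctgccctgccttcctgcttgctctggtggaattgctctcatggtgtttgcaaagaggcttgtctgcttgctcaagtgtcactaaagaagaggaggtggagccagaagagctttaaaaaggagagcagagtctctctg
Slc12a1: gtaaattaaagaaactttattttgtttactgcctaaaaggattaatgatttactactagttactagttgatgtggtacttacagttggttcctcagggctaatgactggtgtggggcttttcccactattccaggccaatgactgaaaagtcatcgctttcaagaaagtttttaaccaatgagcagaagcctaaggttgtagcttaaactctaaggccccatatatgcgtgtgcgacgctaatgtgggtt
The HNF1 half-site (GTTAAT, or ATTAAC on the other strand) stood once before Umod, at bases -202 to -197, and it was found in 6.43% of the 32851 windows of this length. Neither the oestrogen-related receptor half-site (AAGGTCA, or TGACCTT on the other strand), found in 4.08% of windows, nor the AP-2 motif (GCCNNNGGC, which reads the same on both strands), found in 13.7%, stood in the windows of the 5 genes. The motifs have no common letters that would let one match count as another. These are matches of letters only.

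Over the 9 libraries, 216680 barcodes were deposited and 196925 cells were kept, 17196 to 27463 per mouse, with a total of 70106161 to 101525691 UMIs per matrix and a median of 2534 to 2966 UMIs per kept cell. A unique molecular identifier (UMI) stands for 1 captured transcript, and levels are given as CPM, the UMIs of a gene scaled to a common total of UMIs of the same cells of the same mouse. TAL-like cells, written TAL below like the other marker-defined types, numbered 7845 in 2 clusters (3.98% of kept cells, 449 to 1651 per mouse, 1368715 to 4613761 UMIs per mouse). In both clusters 14 of 14 TAL markers were raised by 2 fold or more over the clusters given other names. One mouse stood apart in this tissue: AKI-CKD + EGT mouse 3 had 9.57% TAL cells and the highest mitochondrial share in them (8.27% of UMIs against 1.97% to 7.43% in the other 8 mice). AKI-CKD + EGT mouse 1 lay with the AKI-CKD mice for several of the genes, as given below. Its library was also the one in which Scrublet marked many cells as doublets, 3444 of 17196 kept cells and 134 of its 495 TAL cells, against 0 TAL cells in each other mouse.

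TAL cells formed 4.52%, 4.02% and 3.09% of kept cells in the Control mice. In the AKI-CKD mice they formed 1.94%, 4.25% and 2.50%, and in the AKI-CKD + EGT mice 2.88%, 4.36% and 9.57%. The groups overlapped in both comparisons. The mean was 3.87% ± 0.728 (SD, n = 3) in Control, 2.90% ± 1.205 for the AKI-CKD mice and 5.60% ± 3.51 with EGT. The AKI-CKD mean was 0.977 percentage points below Control (exact two-sided permutation p = 0.3), and the AKI-CKD + EGT mean was 2.70 points above AKI-CKD (exact p = 0.2), which was 0.721 points without AKI-CKD + EGT mouse 3 (exact p = 0.5). With 3 against 3 mice the smallest p this test allows is 0.1. Without Harmony, the correction over libraries, the differences were -0.248 (exact p = 0.8) and 0.935 points (exact p = 0.6). With at most 10% mitochondrial UMIs they were -0.757 and 1.84 points. AKI-CKD + EGT mouse 3 then had 5.24% and 7.37% TAL cells. With the highest doublet scores left out they were -1.14 and 2.84 points, and with no gene left out of the variable genes -1.12 and 3.18.

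Across the cell types, Umod and Egf shared a pattern with a peak in TAL cells and a lower level in distal convoluted tubule (DCT) cells. The mean Umod level over the 9 mice was 4117 CPM ± 1492 (SD) in TAL cells and 1544 CPM ± 570 in DCT cells, and it was at most 229 CPM in any other named type. The Egf level was 1757 CPM ± 543 in TAL cells, 912 CPM ± 196 in DCT cells and 108 CPM in connecting tubule cells. For both genes the TAL level was above the DCT level in 9 of 9 mice, and the DCT level was above the next type in 9 of 9 mice. Further down, endothelial cells, thin limb cells and connecting tubule cells were not separate in Umod, since endothelial cells exceeded thin limb cells in 4 of 9 mice.

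Slc12a1 was concentrated in TAL cells. Its mean was 1561 CPM ± 342 in TAL cells and 53.6 CPM in endothelial cells, the next type, with the TAL level higher in 9 of 9 mice. DCT cells held 41.4 CPM and proximal tubule (PT) cells 18.7 CPM. TAL cells gave 71.4% of all Slc12a1 UMIs of the kept cells, against 51.0% for Umod, 48.6% for Egf, 44.2% for Ptger3, 18.4% for Bsnd and 15.2% for Kcnj1 (means of 9 mice).

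Kcnj1 and Bsnd spread over the whole distal nephron. The Kcnj1 level was 324 CPM ± 98.1 in principal cells, 250 CPM ± 71.1 in DCT cells, 176 CPM ± 77.1 in connecting tubule cells and 125 CPM ± 30.4 in TAL cells. Principal cells exceeded DCT cells in 8 of 9 mice and DCT cells exceeded connecting tubule cells in 9 of 9 mice, while the connecting tubule level was above that of TAL cells in 7 of 9. Intercalated cells held 34.6 CPM. Bsnd was highest in intercalated cells, at 97.2 CPM ± 40.9, above principal cells in 9 of 9 mice. It then ran level through principal (43.3 CPM), DCT (42.8 CPM), TAL (36.8 CPM) and connecting tubule cells (33.3 CPM), neighbours that were each above the next in only 4 to 6 of 9 mice, before it dropped to 4.57 CPM in macrophages.

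Ptger3 had its highest level in TAL cells (148 CPM ± 53.7), a lower one in intercalated cells (64.7 CPM ± 14.9) and 18.7 CPM in DCT cells. Each of these steps held in 9 of 9 mice. DCT cells and stromal cells (18.5 CPM) were not separate, with DCT cells higher in 5 of 9 mice.

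**Figure D1:**
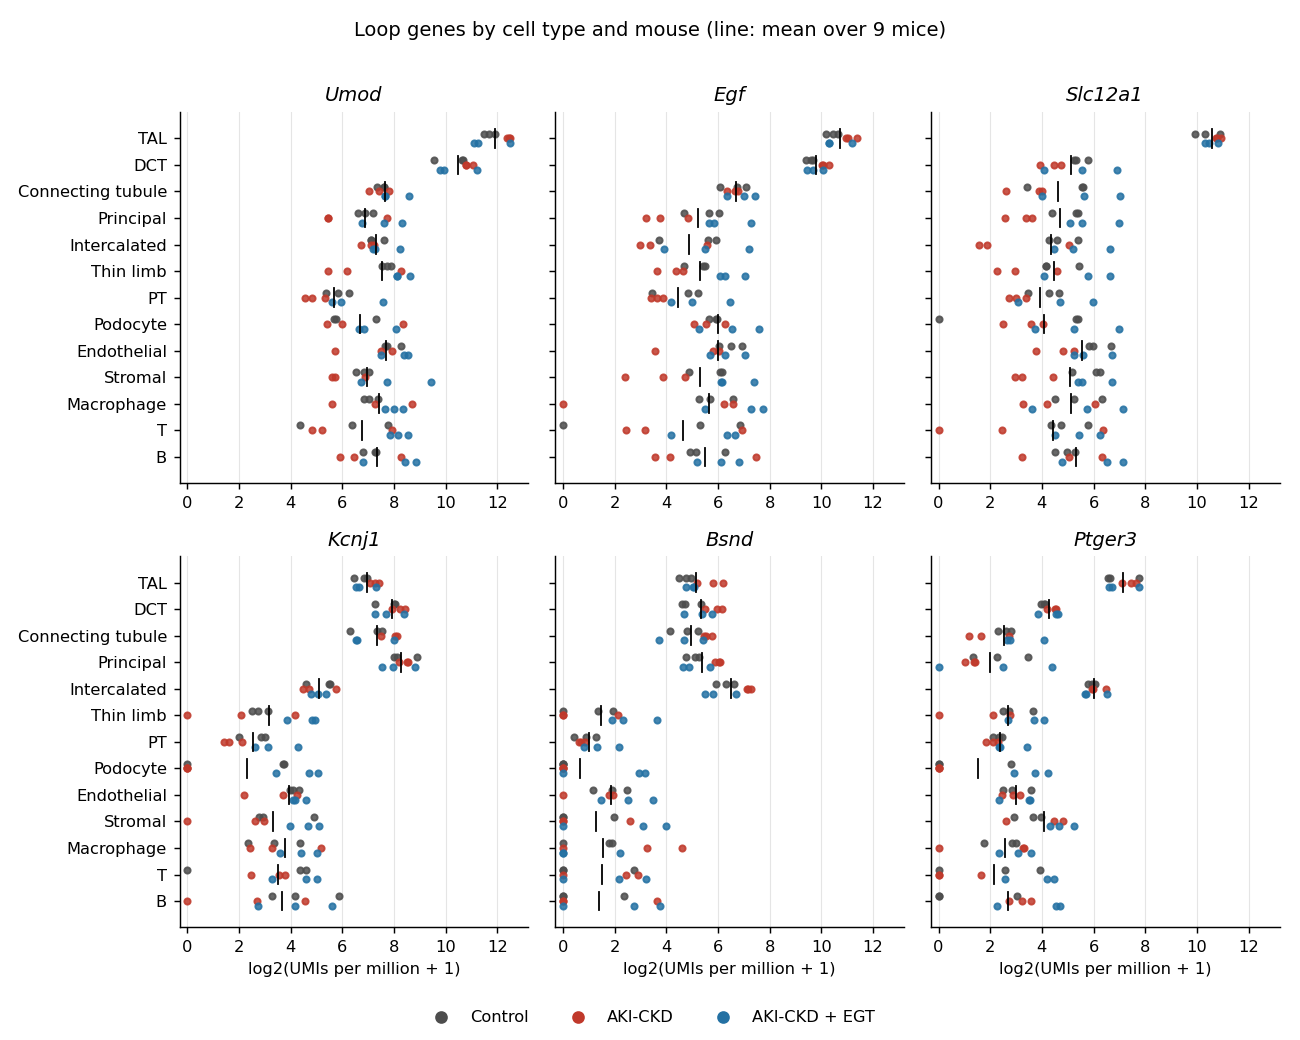
Level of each of the 6 genes in every mouse and cell type, as log2(CPM + 1); each point is 1 mouse, coloured by group. Umod and Egf stand highest in TAL and then DCT cells, Slc12a1 in TAL cells, and Kcnj1 and Bsnd run across the distal types.

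Free RNA in droplet libraries puts UMIs of abundant genes into cells that do not make them, so the same measure was taken in cells that should lack these genes. After each cell was thinned to 1000 UMIs, a Umod UMI was seen in 60.3% of TAL cells, 49.5% of DCT cells, 6.61% of PT cells and 11.2% of macrophages (means of 9 mice). The unthinned shares of Umod were 71.7% in TAL cells and 17.0% in PT cells, at median depths of 2074 and 2957 UMIs. For Slc12a1 the thinned shares were 46.4% in TAL cells, 4.01% in DCT cells, 2.19% in PT cells and 2.90% in macrophages. For Egf they were 43.3% in TAL cells, 38.9% in DCT cells and 3.07% in PT cells. For Kcnj1 they were 12.5% in TAL cells, 19.5% in DCT cells and 0.684% in PT cells. For Bsnd they were 3.86% in TAL cells and 0.1703% in PT cells, and for Ptger3 12.5% and 0.478%. No cell fell short of the 1000 UMIs. The unthinned shares of TAL and PT cells were 54.1% and 8.46% for Egf, 57.6% and 5.91% for Slc12a1, 23.9% and 2.20% for Kcnj1, 8.53% and 0.435% for Bsnd, and 22.1% and 1.58% for Ptger3.

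Pooled over the 9 mice, the ratio of Umod to Slc12a1 UMIs was 2.51 in TAL cells, 3.36 in PT cells, 4.19 in endothelial cells and 3.35 in macrophages, and 26.1 in DCT cells. By mouse it ran from 7.34 to 151 in DCT cells, from 2.47 to 6.37 in PT cells, from 2.99 to 10.1 in endothelial cells and, on few UMIs, from 1.44 to 18 in macrophages. The ratio of Egf to Slc12a1 was 1.1003 in TAL cells, 1.46 in PT cells and 15.98 in DCT cells. With AKI-CKD + EGT mouse 3 set aside, 570 of the 1200 Slc12a1 UMIs of DCT cells were left, and the DCT ratios were 46.9 for Umod and 27.1 for Egf. The Umod and Egf UMIs of DCT cells were accompanied by few Slc12a1 UMIs. In TAL cells the Umod ratio ran from 1.72 to 3.19 by mouse, which overlapped the ranges by mouse of PT cells, endothelial cells and macrophages. The ratios of Kcnj1, Bsnd and Ptger3 to Slc12a1 were 0.0803, 0.0239 and 0.0923 in TAL cells. In PT cells they were 0.326, 0.0620 and 0.254. Where the UMIs outside TAL cells came from was not tested.

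In PT cells the Umod level was 76.4, 55.7 and 40.1 CPM in Control mice, 22.3, 39.1 and 27.4 CPM in AKI-CKD mice and 47.2, 61.1 and 187 CPM in AKI-CKD + EGT mice. The value of AKI-CKD + EGT mouse 3 was the highest, and that mouse also had the highest share of TAL cells. Over the 9 mice the PT level of Umod and the share of TAL cells had Pearson's r = 0.975 (permutation p = 0.000471, adjusted p = 0.000943) and Spearman's rho = 0.883 (permutation p = 0.00308, adjusted p = 0.00615), with adjustment over the 2 relations computed, the other being with the TAL level of Umod. Without the 2 mice farthest from the median share, r was 0.756 over 7 mice. These permutations shuffled the mice across the 3 groups, so their p-values do not separate a relation within groups from differences between groups. The mice of a group are too few for a value within groups. With the TAL level of Umod, r was -0.683 and rho was -0.8 (adjusted permutation p = 0.00145 and 0.0138). The mice fell into separate sets, 5 mice at 2211 to 3814 CPM in TAL cells with 40.1 to 187 CPM in PT cells. The other set was 4 mice at 5258 to 5814 CPM with 22.3 to 47.2 CPM. Neither pooled relation is read as one within groups. Mean PT levels as a share of the TAL level of the same mouse were 2.09% for Umod, 1.92% for Egf, 1.42% for Slc12a1, 5.66% for Kcnj1, 3.74% for Bsnd and 3.61% for Ptger3.

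**Figure D2:**
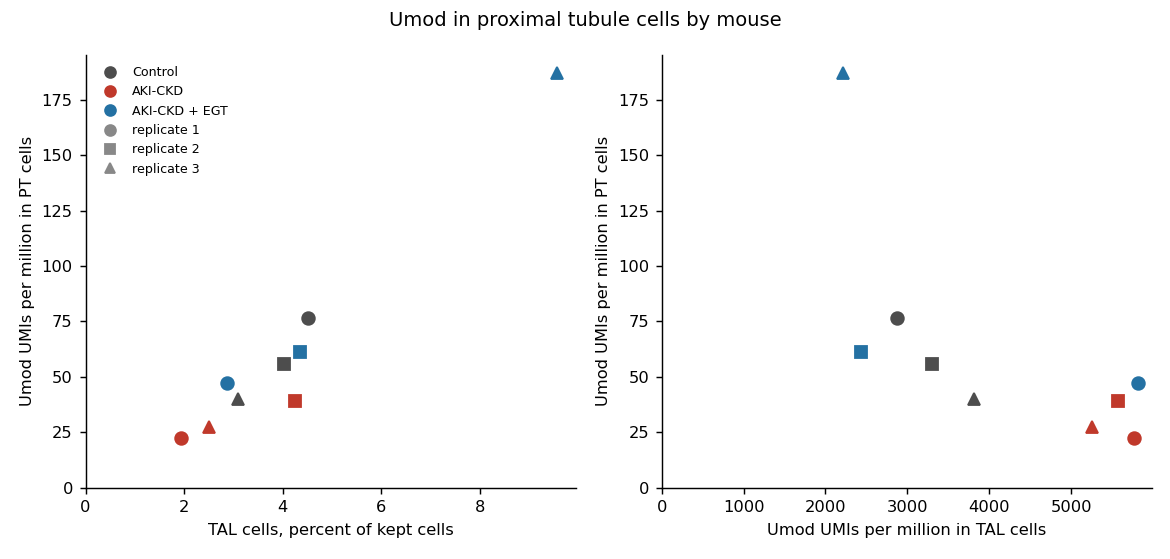
Umod level in PT cells (CPM) of each mouse against the share of TAL cells among kept cells (%) and against the Umod level in TAL cells (CPM), with 1 point per mouse coloured by group. The mouse at 187 CPM is AKI-CKD + EGT mouse 3, which has 9.57% TAL cells.

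The first comparison within TAL cells asks what differed after cisplatin. Umod, Egf, Kcnj1 and Bsnd each lay higher in all 3 AKI-CKD mice than in all 3 Control mice, and none of the 6 genes passed the test. In edgeR's quasi-likelihood test on UMIs summed per mouse, adjusted over 10804 genes, 0 of the 6 genes were called at an adjusted p under 0.05, beside 0.074% of all genes tested. At an unadjusted p under 0.05 there were 4 of the 6, beside 9.98% of all genes, and DESeq2 called 0, beside 0.155%. In that comparison 8.07% of all genes lay higher in every AKI-CKD mouse than in every Control mouse on the normalized scale. The 4 genes are to be read against these shares. Log2 fold changes are relative to a median of -0.01 over all genes tested.

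Umod in TAL cells was at 2874, 3296 and 3814 CPM in Control mice, at 5770, 5578 and 5258 CPM in AKI-CKD mice and at 5814, 2436 and 2211 CPM in AKI-CKD + EGT mice. All AKI-CKD mice lay above all Control mice, while AKI-CKD + EGT mouse 1 lay above every other mouse in CPM and the remaining AKI-CKD + EGT mice below every other mouse. On the normalized scale AKI-CKD + EGT mouse 1, at 5597, was among the AKI-CKD mice (5361 to 5717). The group means were 3328 ± 471, 5535 ± 258 and 3487 ± 2018 CPM (SD, n = 3 each). The log2 fold change of AKI-CKD over Control was 0.72 ± 0.264 (SE; edgeR adjusted p = 0.394).

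Egf in TAL cells was at 1147, 1606 and 1409 CPM in Control mice, at 2678, 2070.5 and 2005 CPM in AKI-CKD mice and at 2355, 1267 and 1273 CPM in AKI-CKD + EGT mice. As for Umod, AKI-CKD lay above Control without overlap and AKI-CKD + EGT mouse 1 stood with AKI-CKD. The log2 fold change of AKI-CKD over Control was 0.68 ± 0.216 (edgeR adjusted p = 0.334).

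Of the transport genes, Slc12a1 was at 984, 1257 and 1880 CPM in Control mice, at 1966, 1775 and 1689 CPM in AKI-CKD mice and at 1825, 1417 and 1259 CPM in AKI-CKD + EGT mice. Control mouse 3 reached the range of the AKI-CKD mice, so the groups overlapped. The log2 fold change of AKI-CKD over Control was 0.39 ± 0.193 (edgeR adjusted p = 0.520), and it ran from 0.22 without Control mouse 1 to 0.63 without Control mouse 3.

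Kcnj1 was at 86.7, 113 and 123 CPM in Control mice, at 151, 170 and 133 CPM in AKI-CKD mice and at 159, 91.2 and 98.6 CPM in AKI-CKD + EGT mice. The channel gene thus had separate Control and AKI-CKD values, with AKI-CKD + EGT mouse 1 among the latter. Its log2 fold change of AKI-CKD over Control was 0.49 ± 0.194 (edgeR adjusted p = 0.417).

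Bsnd had the largest log2 fold change of the 6 genes in TAL cells in both comparisons over the 9 mice. In the second this did not hold in every fit that left out a mouse, where Bsnd ran from -1.14 to -0.60. Without AKI-CKD + EGT mouse 1 it was behind Umod (-0.93 against -1.28). It was at 21.2, 30.3 and 26.0 CPM in Control mice (58, 87 and 52 UMIs), at 55.5, 72.4 and 35.4 CPM in AKI-CKD mice (76, 159 and 66 UMIs) and at 32.6, 25.9 and 31.9 CPM in AKI-CKD + EGT mice (45, 61 and 147 UMIs). Neither comparison had any overlap for this gene with all TAL cells kept. The log2 fold change of AKI-CKD over Control was 1.06 ± 0.237 (edgeR adjusted p = 0.156).

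Ptger3, the receptor gene, was at 92.6, 98.8 and 218 CPM in Control mice, at 134, 173 and 199 CPM in AKI-CKD mice and at 215, 95.4 and 103 CPM in AKI-CKD + EGT mice. Control mouse 3 was above every AKI-CKD mouse. The log2 fold change of AKI-CKD over Control was 0.33 ± 0.298 (edgeR adjusted p = 0.749). It ran from 0.14 without Control mouse 1 to 0.77 without Control mouse 3, and in the latter fit 6 of the 6 genes had an unadjusted p under 0.05 and none was called. Leaving out each mouse in turn moved the other log2 fold changes of AKI-CKD over Control from 0.64 to 0.78 for Umod, from 0.55 to 0.82 for Egf, from 0.37 to 0.57 for Kcnj1 and from 0.76 to 1.30 for Bsnd.

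**Figure D3:**
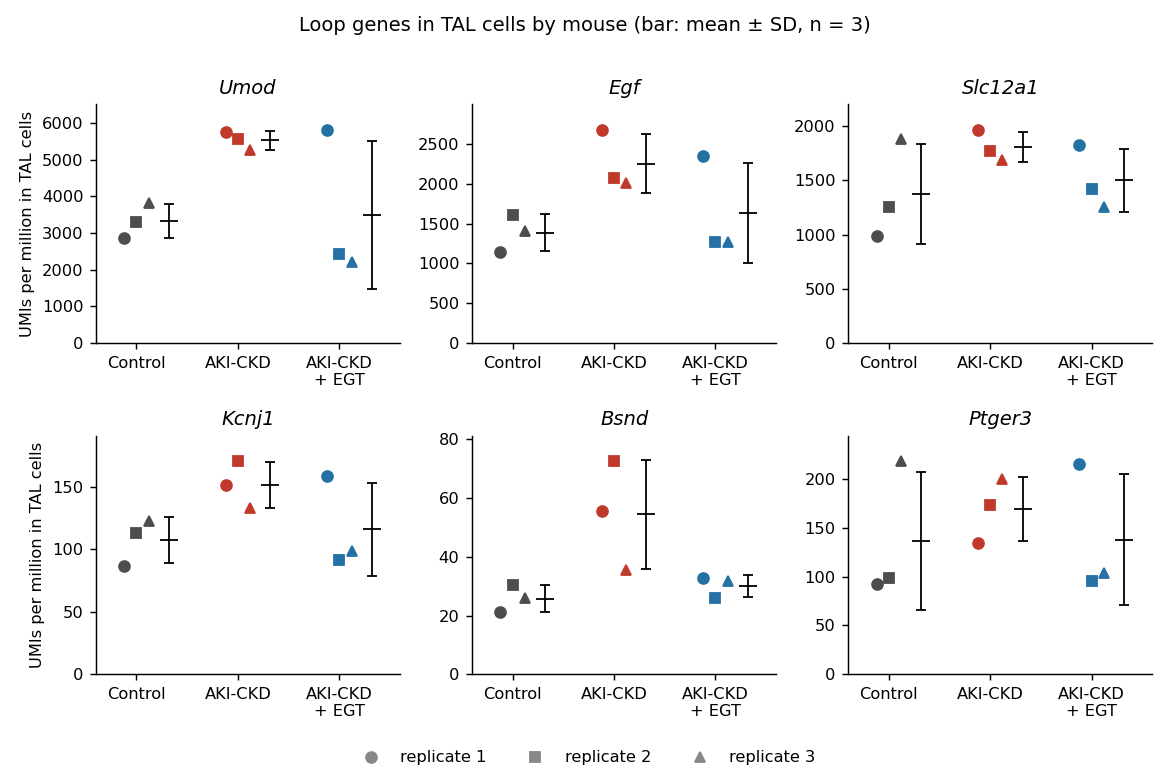
Level of the 6 genes in TAL cells (CPM, linear axes from 0), with 1 point per mouse and the mean ± SD (n = 3) of Control, AKI-CKD and AKI-CKD + EGT. AKI-CKD points lie above all Control points for Umod, Egf, Kcnj1 and Bsnd, and 1 AKI-CKD + EGT point stands high for Umod, Egf and Kcnj1.

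The second comparison asks what differed when EGT was given with cisplatin. The log2 fold changes of AKI-CKD + EGT over AKI-CKD were below 0 for all 6 genes: -0.72 ± 0.264 (SE) for Umod, -0.51 ± 0.216 for Egf, -0.32 ± 0.193 for Slc12a1, -0.46 ± 0.195 for Kcnj1, -0.91 ± 0.235 for Bsnd and -0.39 ± 0.299 for Ptger3. The 2 comparisons share the AKI-CKD mice, so a high value of one goes with a low value of the other. None of the 6 was called by edgeR (adjusted p from 0.124 for Bsnd to 0.616 for Ptger3), beside 0.074% of all genes. At an unadjusted p under 0.05 there were 4, beside 12.6% of all genes, and DESeq2 called 1, Bsnd (adjusted p = 0.0477), beside 2.24% of the genes it adjusted. Bsnd alone lay lower in every AKI-CKD + EGT mouse than in every AKI-CKD mouse, as did 8.71% of all genes. Without AKI-CKD + EGT mouse 1, edgeR called 2 of the 6, Umod at -1.28 ± 0.164 (adjusted p = 0.00188) and Egf at -0.85 ± 0.1799 (adjusted p = 0.0329), and it then called 121 of 11125 genes (1.09%) in place of 8 of 10804. With the TAL cells that Scrublet marked left out, that mouse was at 7293 CPM for Umod, 3040.2 CPM for Egf, 2305 CPM for Slc12a1, 188 CPM for Kcnj1, 40.2 CPM for Bsnd and 280.2 CPM for Ptger3. Its Bsnd level was then above that of AKI-CKD mouse 3 (35.4 CPM), so the groups overlapped for Bsnd as well. That overlap rests on cells taken out of this library alone, as no TAL cell was marked in any other mouse. Leaving out AKI-CKD + EGT mouse 3 gave log2 fold changes of -0.48 for Umod, -0.36 for Egf, -0.21 for Slc12a1, -0.35 for Kcnj1, -0.97 for Bsnd and -0.21 for Ptger3, with none called. Without AKI-CKD + EGT mouse 1, 6 of the 6 had an unadjusted p under 0.05, beside 16% of all genes. Leaving out each mouse in turn moved Slc12a1 from -0.46 to -0.21, Kcnj1 from -0.70 to -0.31 and Ptger3 from -0.80 to -0.17.

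Levels of PT markers in the TAL cells differed between the groups. The summed level of 13 PT markers, none of them at 0 and none at 2 fold or more over all cells, ran from 76984 to 93364 CPM in the TAL cells of Control mice, from 38450 to 69578 CPM in those of AKI-CKD mice and from 54320 to 70860 CPM in those of AKI-CKD + EGT mice, beside a mean of 90610 CPM in PT cells themselves. Control mice therefore had a higher sum of PT markers in TAL cells than any cisplatin-treated mouse. These markers were not compared between groups in PT cells themselves. Whether these transcripts changed in the kidney or RNA from other cells changed was therefore not tested. When only the 6941 genes lower in PT than in TAL cells were fitted, a choice made after the PT transcripts were seen, the log2 fold changes of AKI-CKD over Control were 0.67 for Umod, 0.63 for Egf, 0.35 for Slc12a1, 0.43 for Kcnj1, 1.00 for Bsnd and 0.29 for Ptger3, and those of AKI-CKD + EGT over AKI-CKD ran from -0.84 for Bsnd to -0.26 for Slc12a1. None was called by edgeR in this fit.

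Levels of the TAL markers, which include none of the 6 genes, also differed. Their sum over 14 markers ran from 3655 to 5163 CPM in Control mice, from 5615 to 7243 CPM in AKI-CKD mice and from 3540 to 6196 CPM in AKI-CKD + EGT mice, so that Control and AKI-CKD did not overlap. The sum of 7 connecting tubule markers was also apart, at 3059 to 4399 CPM for Control, 4700 to 7177 CPM for AKI-CKD and 4010 to 5773 CPM for AKI-CKD + EGT. That of 9 DCT markers ran from 396 to 462, from 301 to 484 and from 544 to 730 CPM, and that of 9 principal cell markers from 97.3 to 112, from 78.8 to 118 and from 119 to 189 CPM, so that for both lists AKI-CKD + EGT lay above AKI-CKD without overlap. Stromal markers stood likewise, at 3.49 to 6.26, 1.46 to 4.10 and 11.9 to 25.6 CPM. Thin limb markers summed to 244 to 340.03 CPM and cycling markers to 42.8 to 61.4 CPM over the 9 mice. Summed levels of the lists for podocytes, endothelial cells, macrophages, T cells, B cells, neutrophils and stromal cells were at most 54.9 CPM in any TAL sample, with 1 marker at 0. The intercalated list reached 124 CPM in 1 AKI-CKD + EGT mouse against 5.36 to 27.8 CPM in Control and AKI-CKD mice. The mitochondrial share of TAL UMIs was 7.43%, 5.08% and 1.97% in Control mice, then 3.54%, 3.10% and 2.43% after cisplatin alone, then 4.12%, 5.89% and 8.27% after cisplatin with EGT. The part of these differences in the levels of the 6 genes was not tested beyond the fits named here.

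In DCT cells (7583 cells) the same 2 secreted products and barttin lay higher in AKI-CKD. Umod there was at 742, 1631 and 1597 CPM in Control mice, at 1779, 2145 and 1745 CPM in AKI-CKD mice and at 2397, 986 and 871 CPM in AKI-CKD + EGT mice. Egf was at 677, 821 and 785 CPM in Control mice, at 1243, 1048 and 1062 CPM in AKI-CKD mice and at 1058, 809 and 701 CPM in AKI-CKD + EGT mice. AKI-CKD + EGT mouse 1 again lay with or above the AKI-CKD mice in both genes. Bsnd was at 23.7, 39.6 and 25.5 CPM in Control mice, at 62.1, 71.0 and 43.8 CPM in AKI-CKD mice and at 53.8, 41.1 and 24.9 CPM in AKI-CKD + EGT mice.

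The log2 fold changes of AKI-CKD over Control in DCT cells were 0.55 for Umod, 0.58 for Egf, 1.04 for Bsnd, 0.46 for Kcnj1 and 0.44 for Ptger3. For Slc12a1, which these cells hold at 14.4 to 119 CPM, it was -1.11. With each mouse left out in turn, Umod ran from 0.28 without Control mouse 1 to 0.73 without Control mouse 2, Kcnj1 from 0.26 to 0.58 without the same mice, Egf from 0.51 to 0.63, Bsnd from 0.86 to 1.298, Ptger3 from 0.37 to 0.52 and Slc12a1 from -1.29 to -0.89. Umod, Egf, Bsnd and Ptger3 did not overlap between Control and AKI-CKD on the normalized scale, as was the case for 8.83% of all genes in that direction. Egf alone of the 6 lay lower in every AKI-CKD + EGT mouse than in every AKI-CKD mouse on that scale, with 8.85% of all genes, although the CPM values given here overlap. edgeR called 0 of the 6 genes in either comparison (adjusted p from 0.366 to 0.623 in the first), beside 0% of 11096 genes in both, and at an unadjusted p under 0.05 there were 2 and 3, beside 9.63% and 12.8% of all genes. DESeq2 gave an adjusted p for 3 of the 6 and called 0, beside 1.26% and 6.48% of the genes it adjusted. The log2 fold changes of AKI-CKD + EGT over AKI-CKD were -0.50 for Umod, -0.47 for Egf, -0.69 for Bsnd, -0.45 for Kcnj1, -0.13 for Ptger3 and 1.57 for Slc12a1. With AKI-CKD + EGT mouse 1 left out they were -1.09, -0.63, -0.96, -0.81, -0.17 and 2.02 in the same order, with Slc12a1 called (edgeR adjusted p = 0.047) beside 1.31% of all genes in that fit. With mouse 3 of that group left out they were -0.26, -0.36, -0.43, -0.23, -0.33 and 0.55, with none called.

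Bsnd lay higher in every AKI-CKD mouse than in every Control mouse in TAL, DCT, principal and intercalated cells. The share of all genes in that position was 11.9% in principal and 11.1% in intercalated cells, and 9.53% and 11% lay lower in every AKI-CKD + EGT mouse than in every AKI-CKD mouse. In principal cells (3027 cells), the water- and sodium-handling cells of the collecting duct, Bsnd was at 37.9, 33.2 and 26.1 CPM in Control mice, at 64.9, 58.5 and 66.6 CPM in AKI-CKD mice and at 50.05, 28.1 and 24.3 CPM in AKI-CKD + EGT mice. No mouse of the other groups reached the AKI-CKD values. The log2 fold change was 0.99 for AKI-CKD over Control (edgeR adjusted p = 0.183) and -0.97 for AKI-CKD + EGT over AKI-CKD (adjusted p = 0.219). Kcnj1 in the same cells was at 254, 276 and 474 CPM in Control mice, at 295, 363 and 374 CPM in AKI-CKD mice and at 453, 246 and 183 CPM in AKI-CKD + EGT mice, with overlap in both comparisons. Ptger3 did not pass the filter on low counts in principal cells, so 5 of the 6 genes were tested. None of the 5 was called by edgeR, beside 0.0207% of all genes in the first comparison and 0% in the second; at an unadjusted p under 0.05 there were 3 and 3, beside 14.3% and 13.5% of all genes, and DESeq2 called 0 of the 2 for which it gave an adjusted p, beside 3.62% and 2.09%. For AKI-CKD + EGT over AKI-CKD, leaving out mouse 1 of the former gave 3 calls, Bsnd at -1.28 (edgeR adjusted p = 0.0208), Egf at 2.77 in place of 2.504 (0.0175) and Slc12a1 at 3.43 in place of 3.13 (0.00802), beside 2.3% of all genes in that fit. After thinning, 5.07% of principal cells had an Egf UMI and 3.09% an Slc12a1 UMI, beside 6.72% and 2.90% of macrophages. Leaving out its mouse 3 gave -0.79, 1.65 and 2.19, with none called.

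Intercalated cells (2665 cells), the acid- and base-secreting cells of the collecting duct, gave the only calls of the 6 genes by edgeR in the fit of all 9 mice with the filter on low counts. Bsnd there was at 59.2, 97.2 and 79.0 CPM in Control mice (56, 121 and 39 UMIs), at 144, 154 and 139 CPM in AKI-CKD mice (145, 115 and 87 UMIs) and at 103, 44.5 and 55.7 CPM in AKI-CKD + EGT mice (58, 59 and 129 UMIs). The AKI-CKD mice lay above all others. Bsnd fell with EGT, at a log2 fold change of -1.18 ± 0.246 for AKI-CKD + EGT over AKI-CKD (edgeR adjusted p = 0.0183). DESeq2 also called it (adjusted p = 0.00552), beside 5.7% of the genes it adjusted. For AKI-CKD over Control the log2 fold change was 0.85 (adjusted p = 0.142), which was not called.

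Slc12a1 was the other call in intercalated cells, at a log2 fold change of 2.46 ± 0.661 for AKI-CKD + EGT over AKI-CKD (edgeR adjusted p = 0.0389), and it was not called by DESeq2 (adjusted p = 0.293). Its values were 41.3, 23.3 and 18.2 CPM in Control mice (39, 29 and 9 UMIs), 1.99, 2.67 and 31.9 CPM in AKI-CKD mice (2, 2 and 20 UMIs) and 21.3, 36.2 and 97.6 CPM in AKI-CKD + EGT mice (12, 48 and 226 UMIs). After thinning, 3.23% of intercalated cells had an Slc12a1 UMI, beside 2.90% of macrophages and 3.82% of B cells, which is at the level of the background. The highest of these values belonged to the mouse with the most TAL cells.

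In intercalated cells 5.72% of the 8664 genes tested were called between AKI-CKD + EGT and AKI-CKD, so 2 of the 6 genes stand beside a broad difference, and 0.162% were called between AKI-CKD and Control. In the latter, 0 of the 6 were called by edgeR, 1 had an unadjusted p under 0.05, beside 13.9% of all genes, and DESeq2 called 0 of the 4 for which it gave an adjusted p, beside 2.37%. The Bsnd call was lost without AKI-CKD mouse 1 (adjusted p = 0.0565), AKI-CKD mouse 2 (0.0853), AKI-CKD + EGT mouse 2 (0.0696) or AKI-CKD + EGT mouse 3 (0.101), where its log2 fold change ran from -1.203 to -0.93. The Slc12a1 call was held in 6 of 15 alternatives. It was lost without the same 4 mice (adjusted p from 0.0524 to 0.295), and also with only the 6 mice compared (0.0646), at most 10% mitochondrial UMIs (0.0646), no Harmony (0.0517) or no gene left out of the variable genes (0.0604), with a log2 fold change of 1.51 without AKI-CKD + EGT mouse 3 and of 4.65 without AKI-CKD mouse 3.

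In PT cells (108906 cells), which reclaim most of the filtrate and are not known to make these products, the log2 fold changes of AKI-CKD + EGT over AKI-CKD were 1.46 for Umod, 1.68 for Egf, 1.79 for Slc12a1, 1.88 for Kcnj1, 1.26 for Bsnd and 0.62 for Ptger3, the opposite sign to TAL cells. edgeR called 0 of the 6, beside 0% of 16973 genes, 6 had an unadjusted p under 0.05, beside 13.8% of all genes, and DESeq2 called 1, Kcnj1, beside 1.77%. Leaving out mouse 3 of AKI-CKD + EGT brought the log2 fold changes to 0.74, 0.91, 0.99, 1.33, 0.66 and 0.21 in the same order, with none called, and without AKI-CKD + EGT mouse 1 they were 1.76, 2.05, 2.25, 2.17, 1.62 and 0.798, with Slc12a1 called (edgeR adjusted p = 0.0421) beside 0.533% of all genes. For AKI-CKD over Control they were -0.85 for Umod and from -1.16 for Slc12a1 to -0.17 for Ptger3; edgeR called 0 of the 6 beside 0.0354% of all genes, 1 had an unadjusted p under 0.05, beside 10.5%, and DESeq2 called 0. The mean share of the TAL level of Umod that PT cells held was 1.80% for Control, 0.536% for AKI-CKD and 3.93% for AKI-CKD + EGT mice. AKI-CKD + EGT mouse 3 was at 8.47%, and the mean of that group without it was 1.66%.

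A level over all kept cells of a mouse does not by itself separate the shares of the cell types from the levels within them. The TAL share and the TAL levels are given apart above. Over all kept cells, the log2 fold changes of AKI-CKD over Control were 0.13 for Umod, 0.03 for Egf and -0.19 for Slc12a1. They were 0.04 for Kcnj1, 0.66 for Bsnd and -0.00 for Ptger3. Those of AKI-CKD + EGT over AKI-CKD were 0.29, 0.55, 0.68, 0.56, 0.10 and 0.43 in the same order. The sign over all cells was thus opposite to that within TAL cells in the second comparison. The values without AKI-CKD + EGT mouse 3 were 0.046, 0.16, 0.16, 0.38, -0.18 and 0.050, and without AKI-CKD + EGT mouse 1 they were 0.27, 0.68, 0.95, 0.53, 0.196 and 0.53. edgeR called 0 of the 6 in both, beside 0.0199% and 0.00496% of 20144 genes, and 0 had an unadjusted p under 0.05 in either, beside 8.02% and 12.7%, while DESeq2 also called 0.

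**Figure D4:**
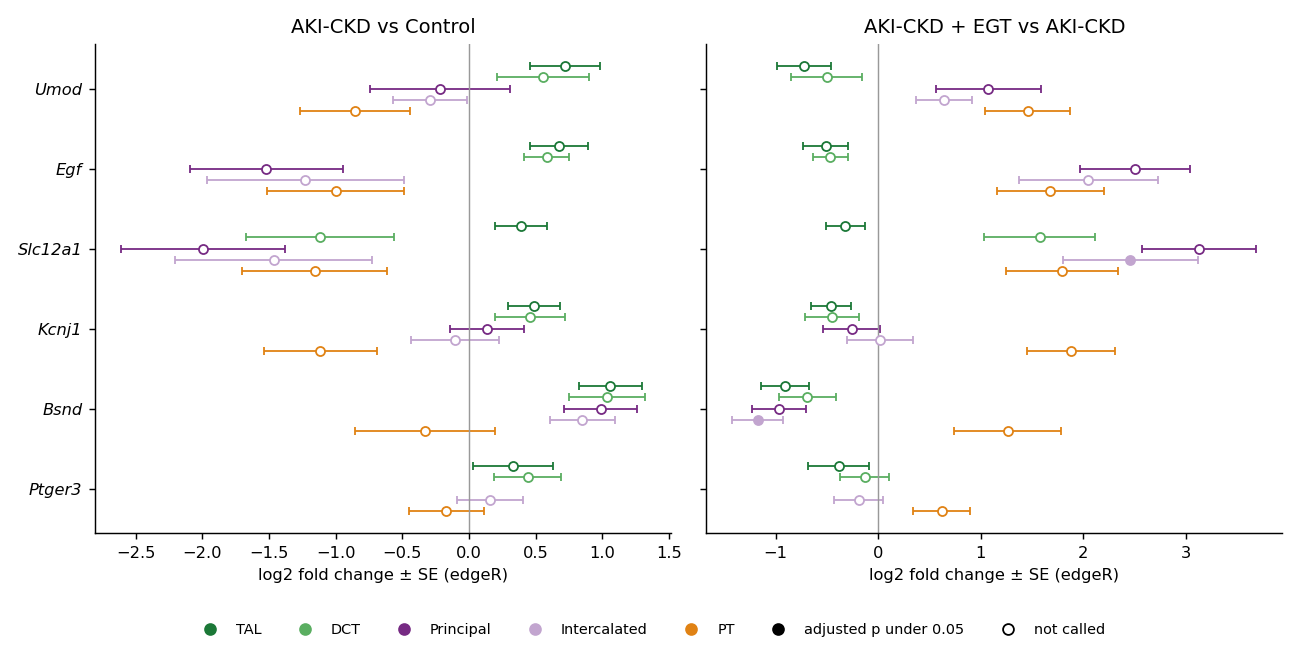
Log2 fold change ± SE from edgeR for the 6 genes in TAL, DCT, principal, intercalated and PT cells, for AKI-CKD over Control and AKI-CKD + EGT over AKI-CKD (3 mice a group); filled points have an adjusted p under 0.05. The filled points are Bsnd and Slc12a1 in intercalated cells in the second comparison, and TAL values are above 0 in the first comparison and below 0 in the second.

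The 2 TAL clusters differed in the levels of these transcripts. The larger one held 6976 cells and the smaller one, led by Slc12a1, Erbb4, Enox1 and Egf, held 869 cells, which were 7.44% to 13.0% of the TAL cells of a mouse. The mean levels in the smaller and the larger cluster were 8316 and 3551 CPM for Umod, 5745 and 1227 CPM for Egf, 5842 and 977 CPM for Slc12a1, 238 and 110 CPM for Kcnj1, 70.8 and 32.1 CPM for Bsnd, and 295 and 128 CPM for Ptger3. The smaller cluster also had a larger share of the nuclear RNA Malat1, 2.51% against 0.586% of UMIs. These are descriptions of clusters of the same cells, with no test.

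TAL cells come in kinds that carry different claudins, the proteins that set what passes between cells. In the TAL, Cldn10 makes a sodium-selective path and Cldn16 belongs to the path for calcium and magnesium. Of the 7845 TAL cells, 3682 (46.9%) had a Cldn10 UMI and no Cldn16 UMI, 572 (7.29%) the reverse, 485 (6.18%) both and 3106 (39.6%) neither, with median depths of 2402.5, 2188.5, 2953 and 1714 UMIs.

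Umod was at 3520 CPM ± 1187 in Cldn10 cells and 9242 CPM ± 2800 in Cldn16 cells (mean ± SD over 9 mice). Its log2 ratio of Cldn10 to Cldn16 cells was -1.40 ± 0.341, and it was below 0 in 9 of 9 mice. Egf was lower still in Cldn10 cells, at 1256 against 4469 CPM and a log2 ratio of -1.83 ± 0.392. The transport genes had the same direction: Slc12a1 was at 1444 against 2765 CPM (log2 ratio -0.95 ± 0.253), Kcnj1 at 117 against 226 CPM (-0.95 ± 0.313) and Bsnd at 30.8 against 87.3 CPM (-1.59 ± 0.548).

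Ptger3 had the opposite direction, at 182 CPM in Cldn10 cells and 48.6 CPM in Cldn16 cells, with a log2 ratio of 1.89 ± 0.881 that was above 0 in 9 of 9 mice. The Cldn16 cells numbered 33 to 105 per mouse and held 2 to 17 Ptger3 UMIs and 8 to 31 Bsnd UMIs, so the sizes of these ratios rest on few counts. Each of the 6 ratios kept its sign in 9 of 9 mice, and each had an exact two-sided p of 0.00391 by sign flips over the 9 mice, the smallest such a test can give, which stayed the same after adjustment over the 6 genes. With the classes called on cells thinned to 1000 UMIs the log2 ratios were -0.86 for Umod, -1.25 for Egf, -0.45 for Slc12a1, -0.56 for Kcnj1, -1.204 for Bsnd and 1.57 for Ptger3.

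The claudin classes are not clean. Cldn10 UMIs were found in 53.1% of TAL cells but also in 53.5% of PT cells, 27.8% of T cells and 26.0% of macrophages, whereas Cldn16 UMIs were found in 13.5% of TAL cells, 0.256% of PT cells and 1.45% of macrophages. The Cldn10 level was 543 CPM in TAL cells, 263 CPM in PT cells and 128 CPM in macrophages. The part of such UMIs in the ratios was not tested.

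**Figure D5:**
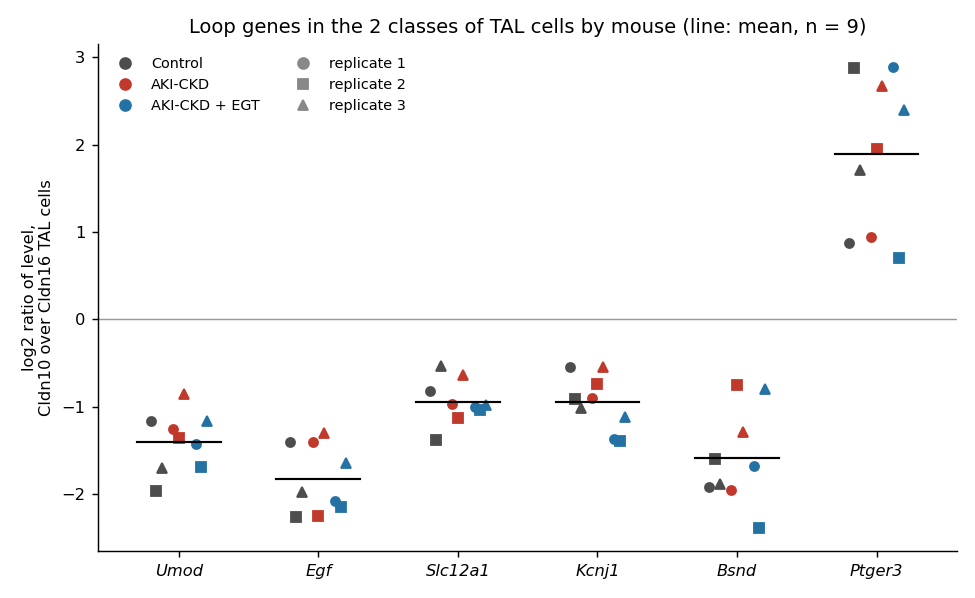
Log2 ratio of the level of each of the 6 genes in TAL cells with a Cldn10 UMI and no Cldn16 UMI to that in TAL cells with the reverse, with 1 point per mouse and the line at 0 marking equal levels. The 9 points of Ptger3 lie above 0 and the 9 points of each other gene below it.

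The genes around the 6 were taken from lists in TAL cells, and 0 genes of any list were called by edgeR in either comparison. Of 79 list entries tested over the 9 lists, 13 had an unadjusted p under 0.05 in the first comparison and 18 in the second. These stood beside 9.98% and 12.6% of all genes. DESeq2 called 1 and 4 list genes, beside 0.155% and 2.24% of all genes it adjusted, and the 4 included Sgk1, Erbb4 and Esrrg. Among 12 partners in salt transport, 11 were tested, of which 10 had a log2 fold change above 0 in AKI-CKD over Control (median 0.25, beside -0.01 over all genes) and 2 in AKI-CKD + EGT over AKI-CKD (median -0.25, beside 0.01). Fxyd2, a subunit of the sodium pump, was at 18761 CPM ± 2093 in Control, 20438 ± 2182 after cisplatin and 18408 ± 994 after cisplatin with EGT. Atp1b1, the beta subunit of the pump, was at 1540 ± 293, 1890 ± 50.8 and 1492 ± 395 CPM in the same order, and the potassium channel gene Kcnj16 at 338 ± 20.04, 377 ± 40.2 and 328 ± 15.9 CPM.

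Of 8 genes of the paracellular path and calcium sensing, 7 were tested, and 7 were above 0 in the first comparison (median 0.50) and 0 in the second (median -0.49). Cldn10 had log2 fold changes of 0.42 and -0.49, Cldn19, the partner of Cldn16, of 0.43 and -0.60, Cldn16 of 0.57 and -0.58, and Casr, the calcium-sensing receptor, of 0.50 and -0.34. No gene of the path passed the test (adjusted p from 0.488 to 0.581 and from 0.284 to 0.569 for the 4 named). These 4 genes are also among the 14 TAL markers whose sum is given above, so they are not a separate observation.

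Kinases and regulators of the transporters were divided. Of 12 tested, 7 were above 0 in the first comparison (median 0.11) and 6 in the second (median -0.06). Ppp1r1a, a phosphatase inhibitor, had log2 fold changes of 0.37 and -0.45, and the kinase genes Wnk4 and Wnk1 of 0.42 and -0.11 and of 0.03 and 0.00. Sorl1, a sorting receptor, had 0.24 and -0.23.

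Of 17 genes of vasopressin and prostaglandin signalling, the pathways that act through receptors such as EP3, 10 were tested, with 5 above 0 in each comparison and medians of -0.01 and -0.02. Gnas, which encodes the stimulatory G protein subunit, was at 456 ± 56.5, 414 ± 39.4 and 469 ± 57.2 CPM in Control, AKI-CKD and AKI-CKD + EGT mice. The inhibitory subunit genes Gnai2 and Gnai1 had log2 fold changes of 0.05 and -0.18 in the first comparison and of 0.17 and -0.18 in the second, and Ptges3, a prostaglandin E synthase and co-chaperone, of -0.28 and 0.14.

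For the handling of uromodulin, 6 of 7 genes were tested, with 3 and 1 above 0 and medians of 0.04 and -0.25. Hpn encodes hepsin, the protease that releases uromodulin from the cell surface, and it was at 209 ± 42.5, 200 ± 30.5 and 194 ± 26.6 CPM in the 3 groups, so its log2 fold changes of -0.07 and -0.10 were within the spread. Hspa5, the chaperone of the endoplasmic reticulum, had log2 fold changes of -0.15 and -0.50, the translocon gene Sec61a1 of 0.37 and -0.21, and the co-chaperone gene Dnajb11 of 0.14 and -0.28.

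Of 13 genes of the EGF family and its receptors, 8 were tested, with 2 above 0 in the first comparison (median -0.21) and 5 in the second (median 0.16). The receptor gene Erbb4 was at 260 ± 26.9, 181 ± 24.2 and 292 ± 65.5 CPM, with log2 fold changes of -0.54 (adjusted p = 0.334) and 0.65 (adjusted p = 0.124). Egfr, the receptor of EGF, was at 48.1 ± 3.45, 40.4 ± 11.4 and 56.5 ± 13.9 CPM. The ligand gene Hbegf had log2 fold changes of -0.20 and -0.18, and Trpm7, a magnesium channel gene, of -0.22 and 0.21.

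Of 12 transcription factor genes, all tested, 6 were above 0 in each comparison (medians -0.00 and 0.01). Esrrg, an orphan nuclear receptor gene of energy metabolism, was at 224 ± 34.7, 166 ± 60.99 and 338 ± 104 CPM, with log2 fold changes of -0.47 and 1.00 (adjusted p = 0.525 and 0.108). Tfcp2l1 had 0.07 and -0.30, Ppargc1a, a coactivator of mitochondrial genes, -0.30 and 0.05, and Tfap2b 0.26 and -0.45.

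Injury genes tested (5 of 8) were above 0 in 5 and 1 cases (medians 0.59 and -0.13), with Spp1, which encodes osteopontin, at 701 ± 64.1, 1113 ± 298 and 918 ± 343 CPM, Clu at 33.7 ± 7.45, 64.9 ± 28.7 and 62.9 ± 14.3 CPM, Krt8 at 146 ± 47.6, 160 ± 55.0 and 156 ± 57.5 CPM, and Krt18 at 10.7 ± 6.98, 16.5 ± 5.69 and 18.7 ± 7.04 CPM. Of the 8 stress genes, all tested, 8 and 2 were above 0 (medians 0.19 and -0.45), among them the immediate early genes Jun (log2 fold changes 0.04 and 0.07), Fos (0.18 and -0.51), Junb (0.21 and -0.22) and Egr1 (0.05 and 0.04), which tissue dissociation is known to raise. The heat shock genes Hspa1a and Hspa1b of this list, named after their values were seen, had log2 fold changes of 0.55 and 0.57 in the first comparison and of -1.33 (edgeR adjusted p = 0.0783) and -1.36 (0.124) in the second, larger in size than that of Bsnd. Their part in the levels of the 6 genes was not tested.

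The genes most like each of the 6 in their levels over the 14 named cell types were found by Pearson's r of log2(CPM + 1) means, among 5497 genes at 50 CPM or more in some type. These values describe 14 cell types from the same libraries. Umod was nearest to Wfdc15b (0.962), Gpx6 (0.953) and Ppp1r1a (0.912), and Egf to Gpx6 (0.974), Wfdc15b (0.961) and Ppp1r1a (0.944). The 2 genes were also close to each other (0.975). Slc12a1 was nearest to Nccrp1 (0.925), Cldn16 (0.924) and Dusp9 (0.901). Kcnj1 was nearest to Tfap2b (0.982), Tmem52b (0.973) and Kcnj10 (0.966), and Bsnd to Slc16a5 (0.974) and Tmem213 (0.9702) among the genes reported. Ptger3 had no gene above 0.786, the value of Pdhb, followed by Tmem61 (0.775) and Etnk1 (0.774). Of the genes reported, Wfdc15b, Ppp1r1a, Cldn16 and Kcnj10 were also among the markers used to name TAL cells.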

How the data were processed

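Single-cell RNA libraries of 9 mice were analysed. The authors deposited 1 matrix per animal, holding unnormalized UMI counts by gene and barcode that PISA had produced per the file headers, on GRCm39 per the submitters' processing notes. The aligner and annotation are not given in the sources used here. The lowest UMI total of a barcode was 1000 in 8 matrices and 1072 in that of AKI-CKD + EGT mouse 3. Cells with at least 1000 UMIs, 500 genes and at most 15% mitochondrial UMIs were kept, which left more cells than the study retained under the same stated limits. Groups and replicate numbers came from the sample labels. Barcode names were running cell numbers, so names found in several libraries say nothing about shared cells.

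Counts were log-normalized, and 2000 variable genes, without the 6 genes, mitochondrially encoded genes or ribosomal protein genes, gave 30 components, corrected over libraries by a Harmony procedure written in numpy and clustered by Leiden with 20 neighbours at a resolution of 1.1. Clusters of at least 50 cells were named by marker lists with at least 3 markers raised 2 fold. The rules that a marker of the type be among the 10 leading genes, that clusters led by haemoglobin stay unnamed and that neutrophils need a defining marker were set after the clusters were seen, and 52309 cells stayed unnamed. Scrublet marked 0 to 4 cells in 8 libraries and 3444 of 17196 kept cells in that of AKI-CKD + EGT mouse 1. Its calls were therefore used in no fit, and doublets were not removed from the main fit. The calls served only for the TAL levels given without marked cells. The cell types are rebuilt and can differ from those of the study.

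UMIs of a cell type were added up within each mouse. The filter filterByExpr, TMM and edgeR's quasi-likelihood test were fitted to the 9 mice with group alone, and p-values were adjusted by Benjamini-Hochberg over every gene in that fit, separately by comparison. Calls need an adjusted p under 0.05. The study tested cells as replicates, which was not done here. CPM values use plain UMI totals, except the values called normalized, which use TMM. Ratios between claudin classes used a pseudocount of 0.5 UMIs. Single values were compared by exact permutation. Totals per library and per type set the counting precision, and counting error is only part of the spread between mice. The edgeR fit was also run on counts simulated for TAL cells, and its outcome is not reported here. Software was Python 3.11.15 (numpy 2.4.6, scipy 1.17.1, scanpy 1.11.5, leidenalg 0.10.2) and R 4.3.3 (edgeR 4.0.16, DESeq2 1.42.0).

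The 6 genes, the gene lists and the alternatives were chosen with earlier results of these data known. Genes outside the 6 were named by rule: up to 4 of each list by TAL level where none was called, and the 3 nearest to each of the 6 over the cell types, of which some are not reported here. Alternatives were DESeq2, no filter on low counts, other library sizes, the replicate number as a block, only the 6 mice compared, at most 10% mitochondrial UMIs, the 6% highest doublet scores left out, no Harmony, no gene left out of the variable genes and each mouse left out. The largest TAL cluster alone and only genes lower in PT than in TAL cells were added after the data were seen, as were TAL levels without the cells that Scrublet marked.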

Additional observations from a re-analysis of the deposited data

Results flagged for a closer look

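The Umod values of AKI-CKD and Control mice stood in opposite order in different cell types on the plain CPM scale. None of the changes passed the test by edgeR (adjusted p = 0.394 in TAL cells, 0.623 in DCT cells and 0.494 in PT cells). In PT cells the groups were only just apart, at 40.1 CPM for the lowest Control mouse and 39.1 CPM for the highest AKI-CKD mouse, and on the TMM-normalized scale they overlapped, at 41.0 and 41.8 CPM. On the log2(CPM + 1) scale its mean was 0.74 higher in AKI-CKD in TAL cells and 0.92 lower in PT cells (a change of -0.92), a difference of 1.66 between the types. The change in DCT cells was 0.59, a difference of 1.52 from PT cells. The difference between the types was not tested, and these changes are not relative to TMM. In PT cells the Umod level of a mouse also went with its share of TAL cells, as given with the levels outside the loop.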

How the results depend on the processing

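In TAL cells all 6 genes kept the direction of their log2 fold change under each of the 17 alternatives run in both comparisons. Their size moved more: Slc12a1 ran from 0.22 to 0.82 in the first comparison and from -0.81 to -0.054 in the second. Without Harmony, 3 and 1 of the 6 had an unadjusted p under 0.05 in TAL cells, in place of 4 and 4, beside 963 and 1279 of 10195 genes. Of 1050 alternatives to 70 log2 fold changes over all populations, 972 kept direction and side of the threshold, 37 were newly called, 13 were no longer called and 28 changed sign, 22 of these by leaving out a mouse. Some of the alternatives moved the number of the 6 genes called. With no filter on low counts, where many more genes entered the fit, AKI-CKD against Control gave 3 in TAL, 2 in DCT, 3 in principal and 3 in intercalated cells, and AKI-CKD + EGT against AKI-CKD gave 2 in TAL, 1 in DCT, 5 in principal, 4 in intercalated and 4 in PT cells. In the latter comparison DESeq2 gave 1 in TAL, 1 in intercalated and 1 in PT cells. For intercalated cells, 1 was called with only the 6 mice compared in either comparison, 1 without Harmony in either, and 1 with at most 10% mitochondrial UMIs and 1 with no gene left out of the variable genes in the second; the one lost in the second was Slc12a1, and the cause was not tested. Leaving out each mouse gave 0 to 2 in TAL, 0 to 1 in DCT, 0 to 3 in principal, 0 to 3 in intercalated and 0 to 1 in PT cells in the second comparison. The calls in TAL (Umod and Egf), in DCT and principal cells and in PT cells (Slc12a1) came without AKI-CKD + EGT mouse 1.

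For log2 fold changes that changed sign the cause was not tested. With no gene left out of the variable genes, Kcnj1 was -0.080 (second comparison) and Ptger3 -0.036 (first) in intercalated cells. Without Harmony, Ptger3 was 0.070 in intercalated cells (second), and Kcnj1 was -0.021 and Umod 0.68 in principal cells (first). With at most 10% mitochondrial UMIs, Ptger3 was 0.058 over all kept cells (first). Leaving out each mouse moved Ptger3 in DCT cells from -0.33 to 0.074 (second), Kcnj1 in intercalated cells from -0.23 to 0.56 (second) and from -0.67 to 0.13 (first), Ptger3 in intercalated cells from -0.043 to 0.28 (first), Bsnd in PT cells from -0.69 to 0.11 (first), and Umod in principal cells from -1.43 to 0.16 (first). Over all kept cells it moved Bsnd from -0.18 to 0.39 (second), and in the first comparison Egf from -0.17 to 0.18, Kcnj1 from -0.23 to 0.28, Ptger3 from -0.21 to 0.18 and Umod from -0.18 to 0.30. Without thinning, the shares of cells with a UMI were higher: 71.7%, 54.1%, 57.6%, 23.9%, 8.53% and 22.1% of TAL cells and 17.0%, 8.46%, 5.91%, 2.20%, 0.435% and 1.58% of PT cells for Umod, Egf, Slc12a1, Kcnj1, Bsnd and Ptger3. Without Harmony 5110 cells were named TAL in place of 7845.

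Of all genes in TAL cells, 8 were called in each comparison, against 154 and 332 with no filter, 16 and 88 by DESeq2, 2 and 12 without Harmony, 2 and 0 with at most 10% mitochondrial UMIs, 2 and 4 with no gene left out of the variable genes, 0 to 7 and 0 to 121 with a mouse left out, and in the second 0 with other library sizes, 26 with only the 6 mice compared, 20 without the highest doublet scores and 20 with only genes lower in PT cells. In intercalated cells 14 and 496 became 82 and 313 by DESeq2, 312 and 948 with no filter, 101 and 267 with only the 6 mice compared, 98 and 248 without Harmony, 0 and 382 with at most 10% mitochondrial UMIs and 0 and 352 with no gene left out. Leaving out a mouse gave 0 to 130 and 22 to 1010 there. By DESeq2 the counts were 21 and 78 in DCT cells (0 and 0 by edgeR), 105 and 33 in principal cells (2 and 0), 114 and 310 in PT cells (6 and 0) and 112 and 217 over all kept cells (4 and 1), and with no filter they were 199 and 390, 293 and 381, 108 and 268, and 29 and 5. Without AKI-CKD + EGT mouse 1 the second comparison had 147 in DCT, 234 in principal and 94 in PT cells.

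With the replicate number as a block, 0 of the 6 genes were called in TAL, DCT, principal and PT cells and over all kept cells, and 2 (Bsnd and Slc12a1) in intercalated cells in the second comparison, as without the block; the genes called of all genes were 6 and 0 in TAL cells and 1 and 208 in intercalated cells. Correlations of the deviations of same-numbered mice ran from -0.200 to 0.0911 in TAL cells and from -0.454 to 0.379 over all populations. In no population was every pair over 0.1, a rule that cannot exclude a batch shared by some same-numbered mice. The 3 mice a group, and in intercalated cells counts as low as 2 UMIs for Slc12a1, limit these results.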
